A study of Mus musculus with 2 samples.

Results

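The Mir200 and Mir183 clusters are 8 microRNA genes at 3 places in the mouse genome: Mir200b, Mir200a and Mir429 in one cluster, Mir200c and Mir141 in another, and Mir183, Mir96 and Mir182 in the last. They were taken by gene symbol from the deposited tables, 8 of 2202 microRNA genes, and all 8 were present in both tables. MicroRNAs are short RNAs that pair with messenger RNAs through their seed, bases 2 to 8 counted from the 5′ end, and lower the translation or stability of those messengers. Mir200 microRNAs keep epithelial cells epithelial by repressing Zeb1 and Zeb2, transcription factors that in turn repress the Mir200 genes. The Mir183 cluster is best known from sensory cells, such as photoreceptors, hair cells and olfactory neurons. Both groups are abundant in many epithelia and in some endocrine glands.

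Hippocampus was taken from female B6CASTF1/J mice aged 14 days, the first-generation cross of C57BL/6J and CAST/EiJ, and the tissue label speaks of a layer without naming it. The 2 libraries are biological replicates of 1 group with no treatment and no mutant allele in the labels, so no contrast of conditions was possible. Each library is labelled with 3 females and stands for a pool, and with 1 library per pool a difference between animals or dissections cannot be told apart from one of library preparation. Sense counts over microRNA genes summed to 4764797 in replicate 1 and 2852269 in replicate 2, 36.1% and 36.4% of all reads. Multi-mapping reads, 40.8% and 37.1%, are counted in no gene. Of 14 genes on a list of neuronal microRNAs, 11 had at least 10 counts in both libraries. The list summed to 25565 and 26046 CPM, counts per 1000000 of the sense total. Genes of every other list read here also reached 10 counts in both libraries, so that number alone does not set neurons apart. The copies of Mir124a, a hallmark of neurons, had 12 and 20 counts in all, and Mir124a-1 shares a run of 32 bases with Mir124a-2, so its reads could fall among the multi-mapping ones. A count of 0 would have allowed a level of up to 0.630 CPM in replicate 1 and 1.05 CPM in replicate 2. Intervals are exact 95% intervals of counting error alone: without molecular identifiers, several reads may be copies of 1 molecule.

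The mature sequences are shown because they decide which of the 8 genes can act on the same messengers and which reads can be told apart. They are the arms by which each microRNA is usually known, from RefSeq on GRCm38.p6, where all 8 genes matched by symbol and position. Capitals mark the seed. The 5 Mir200 genes fell into 2 seed groups that cut across the clusters.

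miR-200b-3p: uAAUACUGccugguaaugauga
miR-200c-3p: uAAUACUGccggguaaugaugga
miR-429-3p: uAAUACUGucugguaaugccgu
miR-200a-3p: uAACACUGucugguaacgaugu
miR-141-3p: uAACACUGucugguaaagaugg
miR-183-5p: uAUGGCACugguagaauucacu
miR-96-5p: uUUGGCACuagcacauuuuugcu
miR-182-5p: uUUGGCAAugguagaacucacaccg

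Mir200b, Mir200c and Mir429 shared the seed AAUACUG, and Mir200a and Mir141 shared AACACUG. No other mature microRNA among the 1738 in the RefSeq table had either seed. The 2 seeds differ by U4C, with Mir200b given first and Mir200a second. Outside the seed, Mir200b and Mir200c differed by U11G and A22G over 22 bases, and Mir200a and Mir141 by C17A and U22G. The Mir183 cluster held 3 different seeds: Mir96 and Mir182 differed there by C8A, and Mir183 and Mir96 by A2U. The seed of Mir96 is shared with miR-1271-5p of another gene, and those of Mir183 and Mir182 with no other entry. Across the whole hairpins, the longest run that a member shared with any other microRNA gene was 17 bases, between Mir200a and Mir141, and 14 bases between Mir200b and Mir200c. Each of the 8 pairs of mature sequences that were compared position by position differed at 2 or more positions. How many mismatches the alignment allowed is not given in the sources used here. Matches of these sequences to the genome outside microRNA genes were not checked. The sequences are of the C57BL/6J reference, and alleles of CAST/EiJ were not analysed here.

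A deposited count belongs to a hairpin, so it sums both arms. The hairpins of the 2 best-covered genes of their clusters in replicate 2, Mir429 and Mir183, show what one count can come from. Capitals mark the 5p arm, then the 3p arm.

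Mir429: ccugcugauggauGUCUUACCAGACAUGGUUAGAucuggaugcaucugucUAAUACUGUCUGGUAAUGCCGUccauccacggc
Mir183: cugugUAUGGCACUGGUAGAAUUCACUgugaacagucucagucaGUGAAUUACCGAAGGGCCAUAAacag

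The 3 clusters lie on the minus strand in GRCm38, and within each the hairpins are close. Mir200b (ENSMUSG00000065549.3) is at chr4:156055681-156055750, Mir200a (ENSMUSG00000065400.1) at chr4:156054896-156054985 and Mir429 (ENSMUSG00000065427.1) at chr4:156053905-156053987, over 1846 bases. These 3 are within an intron of the coding gene Ttll10. They also lie in the noncoding gene Gm13648, Mir200b and Mir200a in its intron and Mir429 in its exon. Mir200c (ENSMUSG00000065462.3) is at chr6:124718322-124718390 and Mir141 (ENSMUSG00000065474.1) at chr6:124717914-124717985, 477 bases in all, in an intron of the noncoding gene Gm15884 between Phb2 and Ptpn6. Mir141 also overlaps, in part, an exon of Gm29008, a short model on the same strand. Mir183 (ENSMUSG00000065619.2) is at chr6:30169668-30169737, Mir96 (ENSMUSG00000065586.1) at chr6:30169446-30169551 and Mir182 (ENSMUSG00000076361.1) at chr6:30165918-30165992, over 3820 bases between Nrf1 and Ube2h with no overlapping annotated gene other than the hairpins themselves. All 8 members had 0 counts on the opposite strand in both libraries.

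**Figure D1:**
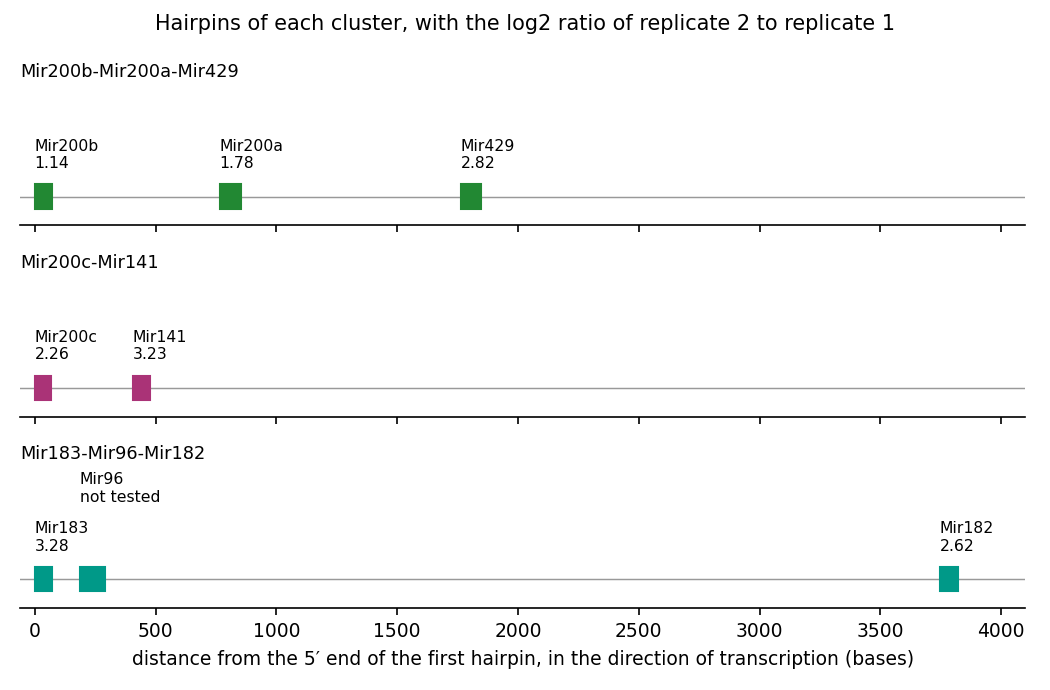
Hairpins of the 3 clusters drawn to scale along the direction of transcription, with distance in bases from the 5′ end of the first hairpin. The number over each hairpin is the log2 ratio of replicate 2 to replicate 1: it was 1.14 for Mir200b and 2.82 for Mir429, 1763 bases further along, and Mir96 had too few counts for the test.

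All 8 genes had counts in both libraries, Mir96 only 1 and 4, and every one had more CPM in replicate 2 than in replicate 1. Together they had 506 counts in replicate 1, or 0.0106% of the sense total (0.00971 to 0.0116), and 1441 in replicate 2, or 0.0505% (0.0479 to 0.0532). The mean share was 0.0306% ± 0.0282 (SD, n = 2), a spread nearly as large as the mean. The 5 Mir200 genes stood at 83.3 CPM (75.3 to 91.9) in replicate 1 and 331 CPM (310 to 352) in replicate 2. The Mir183 cluster stood at 22.9 CPM (18.8 to 27.6) and 175 CPM (160 to 191). In both libraries 6 of the 8 reached 10 counts, all but Mir141 and Mir96. For comparison, the median of the mean levels of the 409 genes with at least 10 counts in both libraries was 109 CPM. The mean levels of all 8 members lay below it. In replicate 2 alone, Mir429 at 126 CPM, Mir183 at 123 and Mir200c at 115 lay above this median of means. The median of replicate 2 by itself was not computed, so their standing within that library was not compared in this way. In bulk tissue, more cells of a type and more RNA per cell cannot be told apart.

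**Figure D2:**
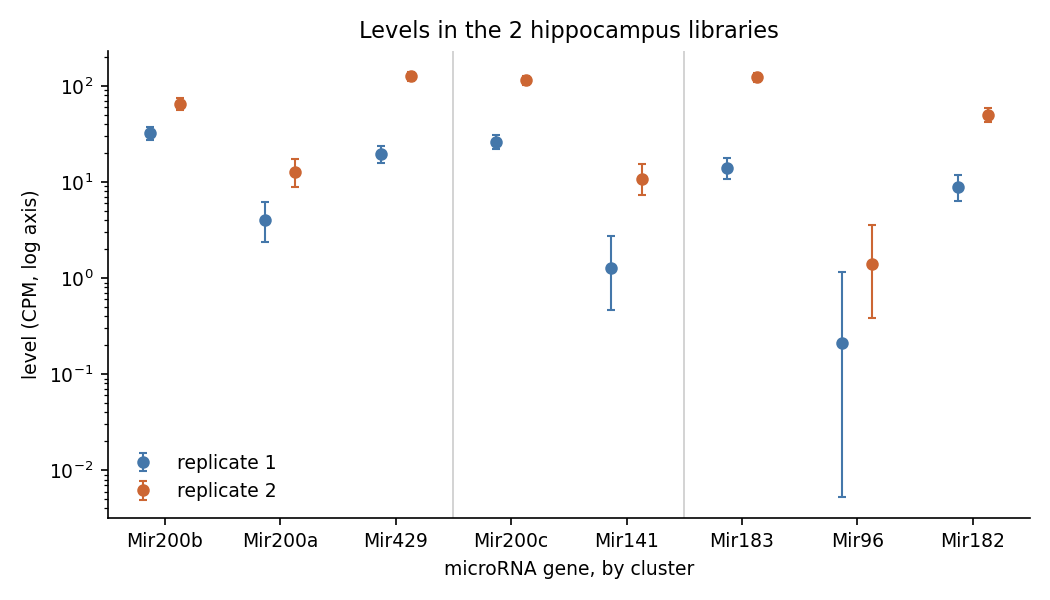
Level of each member in CPM on a log axis, by cluster, in replicate 1 (blue) and replicate 2 (orange), with exact 95% counting intervals. Each orange point lies above the blue point of the same gene, and the intervals of Mir96, with 1 and 4 counts, overlap.

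Among the genes with the seed AAUACUG, Mir200b had 154 counts in replicate 1 and 187 in replicate 2, which are 32.3 and 65.6 CPM. Mir200c had 125 and 329 counts, or 26.2 and 115 CPM. Mir429 had 93 and 360 counts, or 19.5 and 126 CPM. The order of the 3 was thus turned round: Mir200b was the most abundant of them in replicate 1 and the least abundant in replicate 2. The genes with the seed AACACUG were lower in both libraries. Mir200a had 19 and 36 counts, or 3.99 and 12.6 CPM, and Mir141 had 6 and 31, or 1.26 and 10.9 CPM. Summed by seed, AAUACUG genes held 78.1 and 307 CPM and AACACUG genes 5.25 and 23.5 CPM.

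In the Mir183 cluster, Mir183 had 66 and 352 counts, or 13.9 and 123 CPM, and Mir182 had 42 and 142, or 8.81 and 49.8 CPM. Mir96, which is required for hair cell maturation in the inner ear, had 1 and 4 counts, or 0.210 and 1.40 CPM. Its level in replicate 1 was below that of 3 counts, so Mir96 was barely detectable at this depth although its hairpin starts 186 bases after that of Mir183.

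By mean level the order was Mir429 at 72.9 ± 75.4 CPM (SD, n = 2), Mir200c at 70.8 ± 63.0, Mir183 at 68.6 ± 77.5, Mir200b at 48.9 ± 23.5, Mir182 at 29.3 ± 29.0, Mir200a at 8.30 ± 6.11, Mir141 at 6.06 ± 6.79 and Mir96 at 0.806 ± 0.843. The means of neighbours in this order did not differ beyond their SD, which takes in the difference between the libraries. Within each library, only Mir182 and Mir200a kept this order as neighbours with counting intervals that did not overlap. In replicate 1 these were 6.35 to 11.9 CPM for Mir182 and 2.40 to 6.23 for Mir200a. In replicate 2 they were 41.9 to 58.7 and 8.84 to 17.5. A read spans a mature microRNA, so these levels were not divided by length. Among all 2202 genes ordered by mean CPM, the first 7 of these members ranked from 225 (Mir429) to 361 (Mir141), and Mir96 ranked 589.

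The next comparison was between the 2 libraries. Of the 8 members, 7 had a summed count of at least 20 and were tested, and Mir96 was not. All 7 were higher in replicate 2 by an exact two-sided binomial test on library sizes scaled by TMM, a trimmed mean of log ratios, with Benjamini-Hochberg adjustment over 450 genes, and none was lower. This test compares 2 libraries and not conditions. Over all tested genes 32.9% were higher and 32% lower by the same rule, so passing it was common. Within the members' own range of mean counts, 18.5 to 227, 25.5% of 145 genes were higher, and these genes include the 7 members.

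The sizes of the differences are given beside those of all tested genes. The members' median log2 ratio of replicate 2 to replicate 1 was 2.62, beside 0.01 over all tested genes, whose 5th and 95th percentiles were -1.67 and 1.47. All 7 were over 2-fold higher, as were 10.7% of all tested genes, the members included. Ranked by ratio from the highest, the 7 members took places 2, 3, 5, 7, 9, 13 and 36 of 450. No test of the group as a whole was made.

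The largest ratios were those of Mir183, at 3.28 (95% interval 2.89 to 3.68, adjusted p = 7.3e-93), and Mir141, at 3.23 (1.95 to 4.78, adjusted p = 5.5e-09), by the exact binomial test. The interval of Mir141 is wide because it rests on 37 reads. Mir429 followed at 2.82 (2.48 to 3.16), a 7.04-fold difference. Mir182 gave 2.62 (2.11 to 3.15), Mir200c 2.26 (1.96 to 2.57) and Mir200a 1.78 (0.94 to 2.67). Mir200b had the smallest ratio, 1.14 (0.83 to 1.46, adjusted p = 1.0e-12 by the exact binomial test), a 2.21-fold difference. The interval of Mir200b lay below those of its seed partners Mir200c and Mir429. Mir96 gave 2.86 (-0.47 to 8.48), an interval that spans 0.

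**Figure D3:**
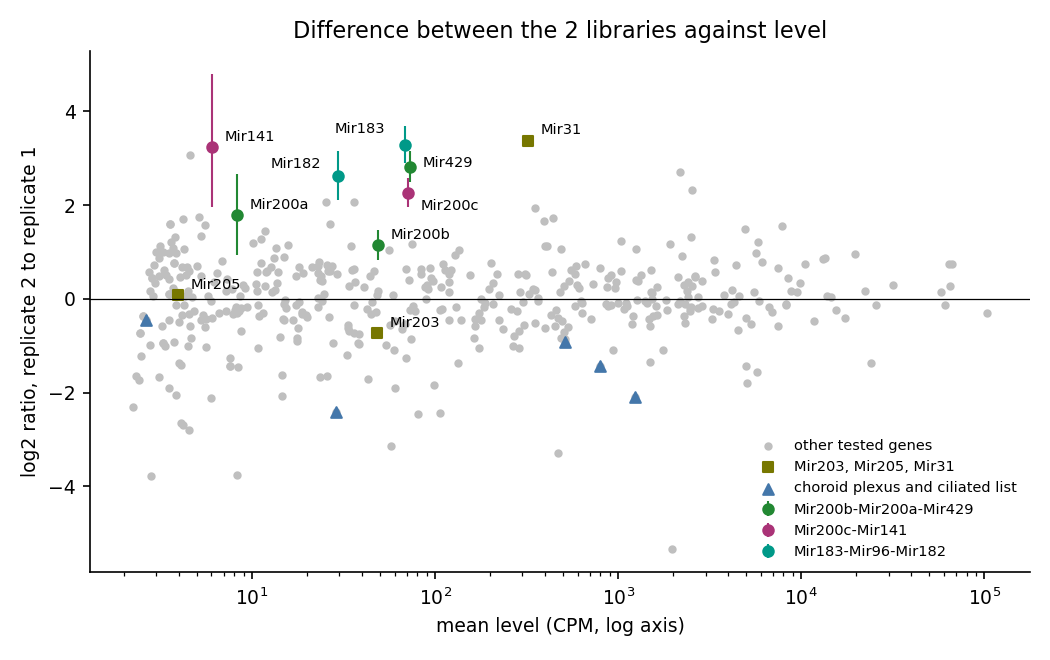
Log2 ratio of replicate 2 to replicate 1 against mean level in CPM (log axis) for the 450 tested genes. Members are coloured by cluster with 95% counting intervals, and squares and triangles mark other epithelial genes. The members lie from 1.14 to 3.28. Of the squares, Mir31 lies higher still at 3.37, Mir205 lies at 0.07 and Mir203 at -0.74. The choroid plexus and ciliated genes, shown as triangles, lie below 0.

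By cluster, summed counts went from 266 to 583 for Mir200b, Mir200a and Mir429, a log2 ratio of 1.99 (1.78 to 2.21). For Mir200c and Mir141 they went from 131 to 360, a ratio of 2.32 (2.03 to 2.62). The Mir183 cluster went from 109 to 498, a ratio of 3.05 (2.75 to 3.37). The interval of the Mir183 cluster did not overlap those of the Mir200 clusters, and the intervals of the Mir200 clusters overlapped each other.

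Hairpins of one cluster are generally cut from one primary transcript, so the make-up of each cluster was compared between the libraries, a comparison that does not depend on library scaling. Mir200b held 57.9% (51.7 to 63.9) of the counts of its cluster in replicate 1 and 32.1% (28.3 to 36.0) in replicate 2. Mir429 held 35.0% (29.2 to 41.0) and 61.7% (57.7 to 65.7). Mir200a held 7.14% (4.35 to 10.9) and 6.17% (4.36 to 8.45), with overlapping intervals. The leading gene of this cluster therefore differed between the libraries.

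The other clusters kept their leading gene. Mir200c held 95.4% (90.3 to 98.3) and 91.4% (88.0 to 94.1) of its cluster, the rest being Mir141. Mir183 held 60.6% (50.7 to 69.8) and 70.7% (66.5 to 74.6) of its cluster, Mir182 38.5% (29.4 to 48.3) and 28.5% (24.6 to 32.7), and Mir96 0.917% (0.0232 to 5.01) and 0.803% (0.219 to 2.04). In these clusters the intervals of each gene overlapped between the libraries.

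**Figure D4:**
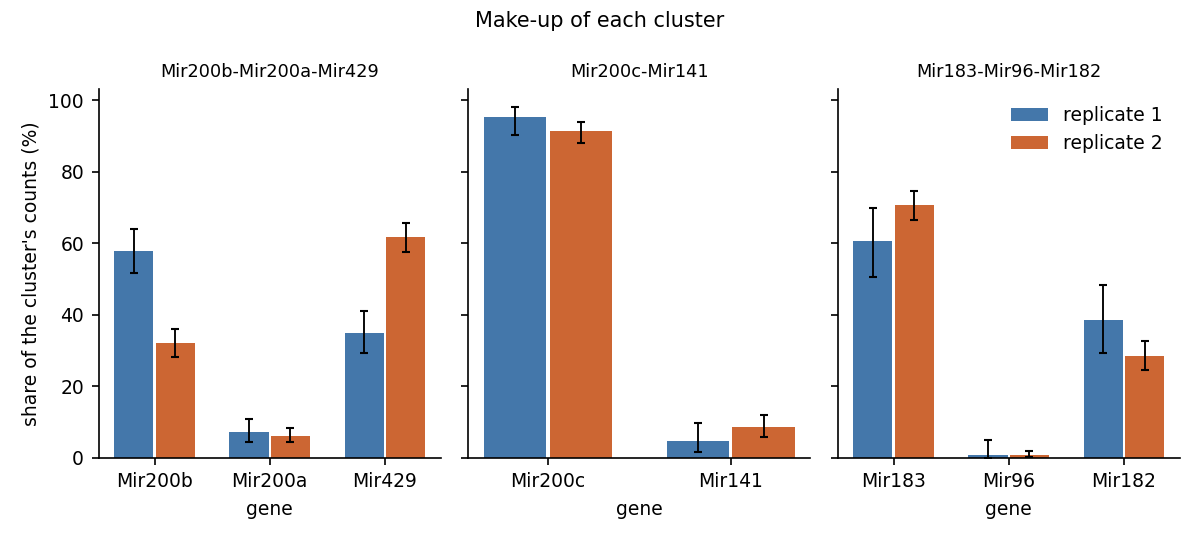
Share of each cluster's counts held by each of its genes, in percent, in replicate 1 (blue) and replicate 2 (orange), with exact 95% intervals. Mir200b and Mir429 exchange places, from 57.9% and 35.0% to 32.1% and 61.7%, while the intervals of all other genes overlap between replicates.

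In all, 10 pairs were compared as a ratio of ratios, 7 within clusters and 3 of genes with 1 seed, with no adjustment of the intervals for their number. Mir429 against Mir200b gave 3.18 (2.31 to 4.41): there were 0.604 counts of Mir429 for each of Mir200b in replicate 1 and 1.93 in replicate 2. Mir429 against Mir200a gave 2.04 (1.05 to 3.85), Mir200c against Mir200b 2.17 (1.59 to 2.95) and Mir429 against Mir200c 1.47 (1.07 to 2.03). The other 6 pairs had intervals that include 1. Among them, Mir183 against Mir182 gave 1.58 (0.994 to 2.48), Mir141 against Mir200c 1.96 (0.781 to 5.89) and Mir200a against Mir200b 1.56 (0.832 to 3.0), so differences of 2-fold are not shut out by these counts.

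The start of Gm13648, the noncoding gene that contains the Mir200b, Mir200a and Mir429 hairpins on their strand, is shown as background. Zeb proteins are known to bind E-boxes with the letters CACCTG in this region. The window runs from 250 bases before to 50 after the RefSeq start on GRCm38.p6, chr4:156059753-156060052, minus strand, with CACCTG in capitals.

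Gm13648: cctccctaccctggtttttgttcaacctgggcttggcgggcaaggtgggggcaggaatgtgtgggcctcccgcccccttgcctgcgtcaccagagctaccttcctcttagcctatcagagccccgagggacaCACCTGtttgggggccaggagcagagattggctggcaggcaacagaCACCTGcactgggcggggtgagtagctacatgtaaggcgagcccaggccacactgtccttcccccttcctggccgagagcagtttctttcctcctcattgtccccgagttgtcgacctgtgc

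The window held 2 matches to CACCTG, searched on both strands (CAGGTG on the other), at -118 and -72 from the start. Of 32851 promoter windows of the same length, 20.2% held at least 1 match and 2.88% at least 2. These are matches of letters, and neither Zeb binding nor Zeb messenger RNA was measured here. Other annotated starts in this region, including those of Ttll10, were not examined for the motif. Nor were the starts of Gm15884 and of the Mir183 cluster. Whether Zeb proteins had a part in the difference between the libraries was not tested.

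Other epithelial microRNAs did not share one direction. Of 3 genes of squamous and other surface epithelium, 1 was higher, 1 lower and 1 did not pass the exact binomial test. Over all tested genes 32.9% were higher and 32% lower. Mir31, abundant in keratinocytes, had 292 and 1664 counts (61.3 and 583 CPM) and a log2 ratio of 3.37 (3.19 to 3.56), the highest of all 450 tested genes. Mir203, which promotes differentiation of skin epithelium, had 297 and 98 counts and a ratio of -0.74 (-1.08 to -0.40). Mir205, another epithelial repressor of Zeb1 and Zeb2, had 19 and 11 counts and a ratio of 0.07 (-1.14 to 1.22). The summed level of the list was 128 CPM in replicate 1 and 622 CPM in replicate 2, and none of its genes was at 0. The larger sum in replicate 2 was due to Mir31 alone. Mir203 had 62.3 and 34.4 CPM, and Mir205 3.99 and 3.86.

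Choroid plexus and ciliated epithelium, which adjoin the hippocampus at the ventricle, went the other way. Of 5 tested genes 4 were lower in replicate 2, beside 32% of all tested genes, and none was higher. The median log2 ratio of the 5 was -1.42. The summed level of the list was 3951 CPM in replicate 1 and 1189 CPM in replicate 2. Mir204, the main choroid plexus microRNA of the list, had 9660 and 1252 counts, a ratio of -2.09 (-2.17 to -2.0). The ciliated cell genes Mir449a, Mir34c and Mir34b gave -1.42 (-1.52 to -1.33), -0.92 (-1.03 to -0.82) and -2.42 (-3.09 to -1.81). Mir211 did not pass, at -0.46 (-2.11 to 0.99), and Mir449b was at 0 in both libraries. The part of these cells in the levels of the Mir200 and Mir183 clusters was not tested.

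Neuroendocrine genes were also read, since the pituitary and other glands carry Mir200 microRNAs. Of 4 genes, all with at least 10 counts in both libraries, 2 were higher and 2 lower. Their median was 0.10, with summed levels of 3721 and 3146 CPM. Mir375, abundant in endocrine cells, had 3075 and 951 counts and a ratio of -0.83 (-0.94 to -0.73). Mir7b gave -0.20 (-0.24 to -0.16), Mir7-2 1.13 (1.02 to 1.24) and Mir7-1 0.41 (0.16 to 0.66). Mir7-1 and Mir7-2 share a run of 24 bases, and their split is uncertain. Of the 11 tested neuronal genes 5 were higher and 4 lower, beside 32.9% and 32% of all tested genes. The median of the 11 was -0.24. All but Mir132 and Mir137 share a run of 22 to 89 bases with another microRNA gene, so their values are uncertain. The part of any of these cell types in the result was not tested.

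With 2 libraries, the genes most like the members can be given only by the closeness of their ratio to the members' median. Of 269 other genes whose mean count reached 100, the 5 closest were Mir543, Mir107, Mir103-2, Mir129-1 and Mir31. Mir543, of the imprinted Dlk1-Dio3 region, had 2936 and 10591 counts and a log2 ratio of 2.71 (2.65 to 2.77). Mir107 gave 2.32 (2.27 to 2.37), Mir103-2 2.07 (1.66 to 2.49) and Mir129-1 1.94 (1.81 to 2.07). Mir107, Mir103-2 and Mir129-1 each share a run of 24 to 27 bases with a further microRNA gene, so their values are uncertain. Of these 5, only Mir31 was on an epithelial list fixed here.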

How the data were processed

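The authors deposited raw read counts per microRNA gene, 1 table per library, on mm10 with GENCODE M21 per the file headers in the accompanying text. For the aligner and counter nothing is given in the sources used here. All 2202 identifiers matched M21. Of the strand columns, the one with more counts served as sense. Reads unmapped, multi-mapping or unassigned stayed out of library sizes and tests (17.1% and 20.6%, 40.8% and 37.1%, 5.98% and 5.82% in replicates 1 and 2).

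CPM, shares and ratios were computed with Python 3.11.15 (numpy 2.4.6, pandas 2.3.3, scipy 1.17.1, matplotlib 3.10.9). TMM factors came from edgeR 4.0.16 under R 4.3.3 on 450 genes whose counts summed to 20 or more. These genes were compared by an exact two-sided binomial test, adjusted over all of them at 0.05, since 1 library per pool leaves edgeR no residual degrees of freedom. The step was tested on simulated counts with counting error alone, as the test assumes, so variation between pools was not covered. Alternatives were total counts or DESeq2 1.42.0 size factors, the unstranded column, other filters, thinning, leaving out the most abundant gene or each replicate, all reads as denominator, and a threshold of 0.01. A GC correction was added after seeing the data.

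The members and lists were chosen with earlier results of these data known. Named genes were the 8 members, list genes with at least 10 counts in both libraries, and the 5 genes (mean count 100 or more) nearest in ratio to the members' median. Mir211, Mir449b, Mir124a-2, Mir194-1, Mir199a-1, Mir199a-2 and Mir451b were named outside this rule, after their values were seen. Mir486a of the red cell list had no entry by that symbol.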

Additional observations from a re-analysis of the deposited data

How the results depend on the processing

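Under the 8 alternatives for the difference between the libraries, all 53 log2 ratios of members that could be computed kept their direction and their side of the threshold. Total counts as library sizes moved the median of all tested genes from 0.01 to -0.11, and gave the lowest ratio for Mir200b, 1.02, and for Mir183, 3.16. The ratio of Mir141 ranged from 3.11 to 3.49 and that of Mir429 from 2.69 to 3.0. The number of members called was 7 under every alternative, an adjusted p under 0.01 and a removed GC trend included, except with a summed count of at least 200, which left 4 members to test and called all 4. The summed share of the members was 0.0505% without replicate 1 and 0.0106% without replicate 2. Leaving out a replicate gave no log2 ratio. Per 1000000 of all reads the mean level of Mir200b was 17.8, since that denominator includes reads assigned to no gene. Shares within clusters and ratios of ratios could not change with the unstranded column, since every member had the same counts there as in the sense column. Depth limits Mir96, with 5 reads in all, and widens the intervals of Mir141 and Mir200a.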

Other observations

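Gene lists of other cell types also differed between the libraries. All 4 tested fibroblast and mesenchymal genes were lower in replicate 2. Their median log2 ratio was -1.17, with summed levels of 6131 and 3519 CPM, beside 32% of all tested genes called lower. Mir214, a microRNA of mesenchyme, had 463 and 68 counts and a ratio of -1.90 (-2.29 to -1.54), and Mir10b, of HOX-patterned tissue, had 174 and 30 and a ratio of -1.67 (-2.28 to -1.11). Mir143 and Mir145a, of smooth muscle, gave -0.67 (-0.71 to -0.64) and -0.46 (-0.61 to -0.31). Mir199a-1 was at 0 in both libraries, and Mir199a-2 had 2 counts in each.

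Of 3 tested genes of gut and secretory epithelium, 1 was higher and 1 lower, beside 32.9% and 32% of all tested genes. Mir194-2 had 42 and 39 counts and a ratio of 0.76 (0.09 to 1.42), and it shares a run of 22 bases with Mir194-1. Mir192, its neighbour, had 48 and 39 counts and did not pass, at 0.56 (-0.09 to 1.20). Mir375 of this list was lower in replicate 2, as given above. The red cell microRNA Mir451a had 1036 and 1892 counts and a ratio of 1.73 (1.62 to 1.84), while Mir144 of the same locus had 225 and 107 and did not pass, at -0.21 (-0.56 to 0.13). Mir451a lies opposite Mir451b and had 0 counts when strand was ignored.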
